A study of Mus musculus with 6 samples.

Results

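Ly6cloF4/80lo and Ly6chiF4/80lo sorted cell fractions of the mouse spleen were compared within normal spleen and within spleen carrying T cell acute lymphoblastic leukemia (T-ALL). The comparison used 4 of the 6 RNA-seq libraries of the series, the Ly6cloF4/80lo and Ly6chiF4/80lo libraries of each state, and the 9086 of 16058 listed genes that reached 5 FPKM (fragments per kilobase of transcript, scaled to the mapped fragments of the library) in at least 1 of those 4. The normal libraries came from spleen of C57BL/6 mice, also 6 to 8 weeks old, at day 0 and are labelled as controls. The T-ALL libraries came from spleen of C57BL/6 recipients, 6 to 8 weeks old, that had each been given 1000000 GFP+ leukemia cells without irradiation and were sampled at day 15; by the submitters' account all recipients developed T-ALL and survived 35 to 40 days. The hosts, not being irradiated, had their own hematopoiesis in place. Each gate and state has 1 library, and the labels do not say how many mice went into it. The normal and the T-ALL pair are therefore the only replication of the gate difference, and p-values measure the spread between these sorted fractions only. The other 2 libraries, Ly6cloF4/80hi cells of both states, entered the fit for its estimate of spread and of the state effect. The 2 gates are called the Ly6chi and Ly6clo gate from here on, and pairs of values give Ly6chi first and Ly6clo second.

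Ly6C is a small GPI-anchored surface protein that is high on classical, CCR2-dependent inflammatory monocytes and on some other bone marrow-derived cells, and F4/80 is the adhesion receptor encoded by Adgre1 that is highest on resident red pulp macrophages of the spleen. Classical monocytes can lose Ly6C and become Ly6C-low patrolling monocytes, a conversion that depends on the nuclear receptor Nr4a1. Cells of other lineages, among them neutrophils, plasmacytoid dendritic cells and plasma cells, can also carry Ly6C, and the spleen holds dendritic cells, B cells and erythroid precursors that carry little of it.

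The libraries listed 14225 to 14628 genes each, and FPKM summed to 494558 to 583298 per library. The smallest steps between listed values put the depth near 6660000 to 8690000 fragments per library, at which a 2 kb transcript at 5 FPKM has a counting error of 10.7% to 12.3%. Gate differences are on the log2(FPKM + 1) scale, Ly6clo minus Ly6chi, which understates the difference of low genes, and adjusted p-values are Benjamini-Hochberg values over all genes fitted from limma's two-sided moderated test with state as a block. Genes that reached 5 FPKM only in the gate where they are high had to differ between the gates to be included, so counts over list members describe the lists and support nothing further. A bare signed number in brackets is the fitted difference, and a bare number in brackets after a left-out library or another setting is the limma adjusted p obtained there.

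Ly6c2, the gene for the sort antigen Ly6C, was at 482 and 19.9 FPKM in the normal pair and at 1405 and 21.4 FPKM in the T-ALL pair. The Ly6clo libraries were thus close to each other, and the T-ALL Ly6chi library was higher than the normal one. The fitted difference was -5.25 (SE 0.33, limma adjusted p = 0.00346), and it passed under every alternative setting with an adjusted p of 0.000501 to 0.0484. Cells were sorted on this antigen, so the difference checks the labels and is not a finding. Adgre1, which encodes F4/80, was at 86.6 and 86.7 FPKM in the normal pair and 47.3 and 74.7 FPKM in the T-ALL pair, against 529 and 234 FPKM in the normal and T-ALL Ly6cloF4/80hi libraries. Each F4/80lo value lay below both F4/80hi values, and Adgre1 did not pass between the 2 F4/80lo gates (0.32, SE 0.26, limma adjusted p = 0.431).

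The adjusted p was under 0.05 for 526 of 9086 genes (5.79%), 294 higher in the Ly6clo gate (3.24%) and 232 lower (2.55%), and 456 of them differed by at least 2-fold. All 526 had the same sign in both pairs, which the call all but requires and which is no separate evidence. The fitted difference is the mean of the pair differences, and its error grows as the pairs disagree. Counts of list members that passed are to be read against 3.24% of all genes higher and 2.55% lower. The unadjusted limma p was under 0.05 for 2631 of 9086 genes. List counts at that threshold are to be read against this share. Over all genes fitted the median difference was 0.19, and it was 0.14 in the normal and 0.22 in the T-ALL pair, so list medians are to be read against these values. Across genes the 2 pairs, which share no library, correlated with Pearson r = 0.675 and Spearman rho = 0.593, and 74.6% of genes had the same sign in both. These coefficients describe the genes, which are not independent replicates. The split between directions depended on scale: median-ratio rescaling of the libraries moved the median of all genes to -0.01 and the share of calls that were higher from 55.9% to 34.8%, and quantile normalization gave 40.7%. Leaving out the normal Ly6clo library left 148 calls (59 higher, 89 lower) and leaving out the T-ALL Ly6chi library left 132 (50 higher, 82 lower). In the bulk RNA of a sorted fraction, fewer cells of a type and less RNA per cell cannot be told apart. How far the marker genes of other cell types described here account for the remaining gate differences was not tested.

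**Figure D1:**
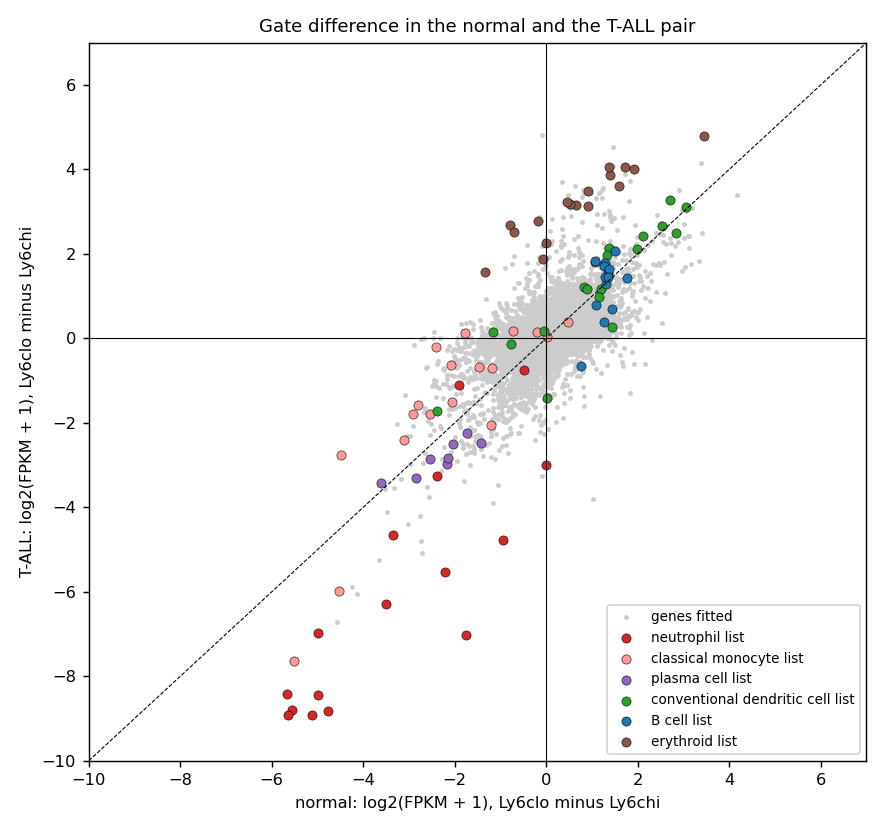
Gate difference of each of the 9086 genes fitted, log2(FPKM + 1) of the Ly6clo minus the Ly6chi library, in the normal pair (x axis) against the T-ALL pair (y axis), with members of 6 gene lists coloured and the line of equal values dashed. Most neutrophil genes lie at the lower left and below the dashed line, most B cell and conventional dendritic cell genes at the upper right near it, and erythroid genes above it.

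Genes of neutrophil granule proteins were among the lowest in the Ly6clo gate. Promoter windows (RefSeq, GRCm38.p6, 250 bases before to 50 after the gene start) are shown for 5 of them, all 5 lower in that gate. Cebpe, the gene of the granule gene activator C/EBP epsilon, was also lower there. Whether C/EBP epsilon has a part in these differences was not tested. Capitals mark matches to TTGCNNAA, a C/EBP-type motif, on either strand; no other motif was searched. The windows are Ngp at chr9:110419558-110419857 (plus strand), Ltf at chr9:111019042-111019341 (plus strand), Lcn2 at chr2:32387690-32387989 (minus strand), Mmp8 at chr9:7558179-7558478 (plus strand) and Camp at chr9:109849407-109849706 (minus strand).
Ngp: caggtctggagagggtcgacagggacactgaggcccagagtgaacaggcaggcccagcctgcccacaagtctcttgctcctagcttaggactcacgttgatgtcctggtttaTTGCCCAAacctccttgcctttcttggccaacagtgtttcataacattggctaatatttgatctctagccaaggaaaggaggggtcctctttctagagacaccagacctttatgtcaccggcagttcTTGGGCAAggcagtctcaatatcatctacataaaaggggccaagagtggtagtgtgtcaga
Ltf: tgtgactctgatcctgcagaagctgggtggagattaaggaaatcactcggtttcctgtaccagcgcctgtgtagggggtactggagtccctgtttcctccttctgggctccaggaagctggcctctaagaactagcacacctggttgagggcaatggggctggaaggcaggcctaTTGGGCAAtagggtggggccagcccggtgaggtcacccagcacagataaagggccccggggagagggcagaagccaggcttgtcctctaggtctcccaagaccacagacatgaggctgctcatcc
Lcn2: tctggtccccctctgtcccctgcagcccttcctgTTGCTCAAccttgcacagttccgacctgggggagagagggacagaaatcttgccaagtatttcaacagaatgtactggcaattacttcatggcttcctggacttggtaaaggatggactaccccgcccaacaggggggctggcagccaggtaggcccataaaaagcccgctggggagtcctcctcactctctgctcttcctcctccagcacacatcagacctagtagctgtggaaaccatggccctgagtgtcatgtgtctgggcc
Mmp8: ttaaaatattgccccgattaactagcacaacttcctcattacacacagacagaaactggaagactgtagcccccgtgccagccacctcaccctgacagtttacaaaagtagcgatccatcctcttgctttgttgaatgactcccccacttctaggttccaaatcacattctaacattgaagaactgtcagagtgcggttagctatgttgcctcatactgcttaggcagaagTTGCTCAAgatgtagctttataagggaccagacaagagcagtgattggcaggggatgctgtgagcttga
Camp: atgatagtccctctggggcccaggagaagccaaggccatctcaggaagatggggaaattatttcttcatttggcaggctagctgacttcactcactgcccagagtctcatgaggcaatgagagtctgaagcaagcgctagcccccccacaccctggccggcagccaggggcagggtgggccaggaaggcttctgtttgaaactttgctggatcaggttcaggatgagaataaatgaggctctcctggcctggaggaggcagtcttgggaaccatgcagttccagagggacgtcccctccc

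The Ngp window held 2 matches, which began 138 and 11 bases before the gene start, and those of Ltf, Lcn2 and Mmp8 held 1 each, 75, 216 and 19 bases before it. The Camp window held none. Of these 5, Mmp8 (-3.88, limma adjusted p = 0.0435) is the one that is not among the 12 lowest by rule, and it missed the threshold without either Ly6clo library (0.114 normal, 0.177 T-ALL), the T-ALL Ly6chi (0.0738) or the normal Ly6cloF4/80hi library (0.102), and after median-ratio rescaling (0.0542). The windows of S100a8, S100a9 and Cd177, neutrophil list genes that are among the 12, are not shown. Those of S100a8 and Cd177 held no match, and that of S100a9 held 1. Of the neutrophil list, 8 of the 17 windows in the table (47.1%) held a match, against 3547 of all 32851 windows (10.8%) and 839 of 9451 windows of the genes fitted (8.9%). These shares were not tested, and the list was chosen with earlier results of these data known. A match is a stretch of letters and not a binding site, and a window without one says only that these letters are absent from it.

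Neutrophil genes were lower in the Ly6clo gate in both states. Of 18 listed genes, 16 were fitted, 12 passed as lower (2.55% of all genes) and none as higher (3.24%). In 15 of 16 the Ly6clo values lay wholly below the Ly6chi values, which held for 13.7% of all genes. The summed FPKM of the list was 13758 and 431.9 in the normal pair, a ratio of 31.9, and 46000 and 138.7 in the T-ALL pair, a ratio of 332. Camp, the cathelicidin antimicrobial peptide, was at 1339 and 25.6 FPKM in normal, 3714 and 6.71 in T-ALL spleen. Its fitted difference of -7.28 was the lowest of the genes named by rule (SE 0.69, limma adjusted p = 0.00826). Ngp, neutrophilic granule protein, was at 2436 and 51.1 FPKM in normal, 6045 and 12.5 in T-ALL spleen. Ltf, the iron-binding granule protein lactoferrin, was at 672 and 12.2 FPKM in normal, 1486 and 3.36 in T-ALL. The alarmin gene S100a8, which encodes a subunit of calprotectin, was the most abundant gene of the T-ALL Ly6chi library, with 5836 and 166 FPKM in normal, 21584 and 43.5 in T-ALL spleen. In all of these the T-ALL Ly6chi library was highest, the normal Ly6chi library followed, and the T-ALL Ly6clo library was lowest.

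S100a9, which encodes the other subunit of calprotectin, was at 2653 and 96.8 FPKM in normal, 10296 and 21.9 in T-ALL. Lcn2, the siderophore-binding protein lipocalin 2, was at 465 and 13.6 FPKM in normal, 1768 and 4.05 in T-ALL. The fitted differences of Ngp, Ltf, S100a8, S100a9 and Lcn2 were -7.18, -7.04, -7.03, -6.79 and -6.72, with limma adjusted p-values of 0.00689 to 0.0178. The surface markers Cd177 (86.4 and 1.76 FPKM in normal, 208 and 0.66 in T-ALL; -5.98, limma adjusted p = 0.00649) and Ly6g, the antigen of the neutrophil antibody 1A8 (19.2 and 0.99 FPKM in normal, 53.9 and 1.18 in T-ALL; -4.00, limma adjusted p = 0.00826), were lower as well. Both kept their calls under every setting, except Ly6g in the fit with no state block (0.0815). Retnlg, a resistin-like secreted protein, did not pass (28.2 and 7.64 FPKM in normal, 234 and 0.8 in T-ALL; -4.39, SE 1.13, limma adjusted p = 0.0801), and neither did the chemokine receptor Cxcr2 (23.4 and 16.5 FPKM in normal, 32.6 and 19.0 in T-ALL; -0.61, limma adjusted p = 0.133).

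Calls on the neutrophil genes leaned on both Ly6clo libraries. Without the normal Ly6clo library 3 of the list passed and without the T-ALL Ly6clo library 4 passed. Without the first, the adjusted p was 0.0669 for Camp, 0.154 for Ngp, 0.134 for Ltf, 0.253 for S100a8, 0.271 for S100a9 and 0.177 for Lcn2. Without the second it was 0.0607, 0.124, 0.0921, 0.25, 0.279 and 0.145 in the same order, and S100a9 also missed the threshold without the normal Ly6cloF4/80hi library (0.0576). The differences stayed between -8.58 and -5.98 for Camp and between -8.47 and -5.10 for S100a9 with any 1 library left out.

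**Figure D2:**
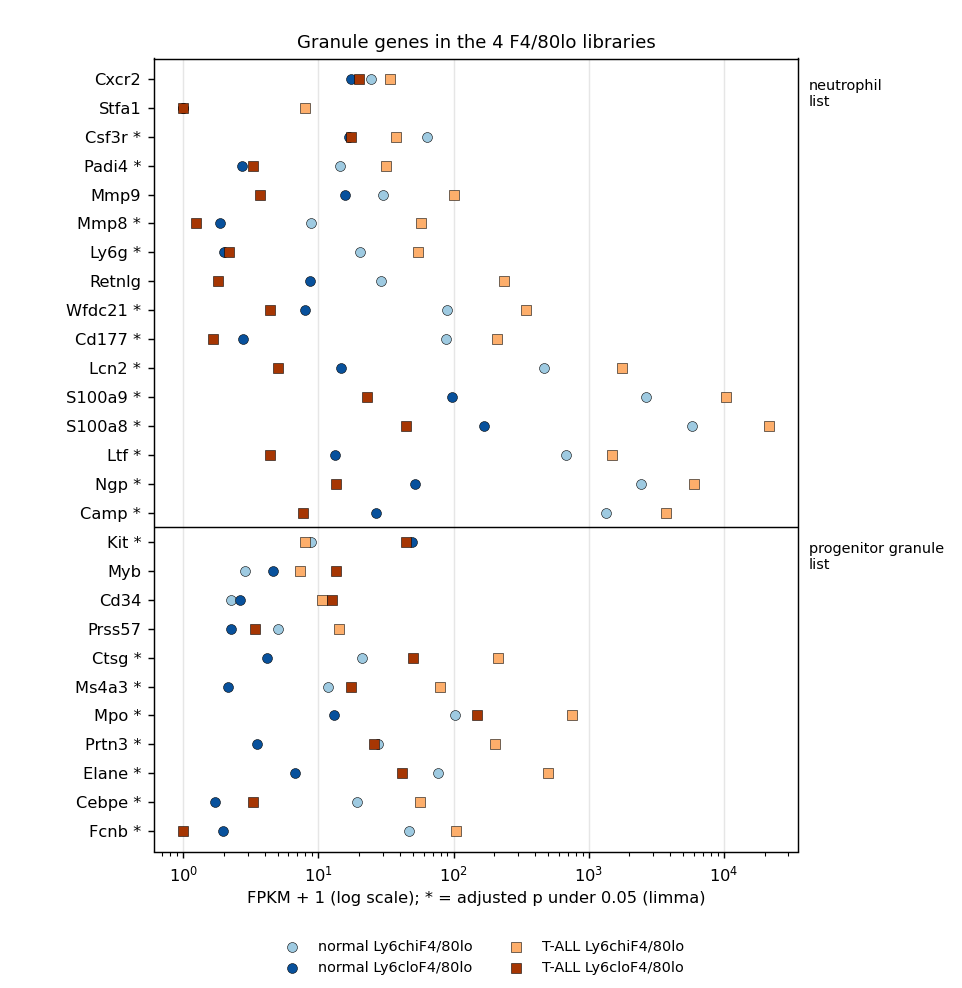
Levels of the fitted members of the neutrophil and the myeloid progenitor granule list in the 4 F4/80lo libraries, as FPKM + 1 on a log scale, with circles for normal and squares for T-ALL spleen; an asterisk marks an adjusted p under 0.05. For Camp, Ngp and Ltf both Ly6clo libraries lie under 52 FPKM and both Ly6chi libraries over 670 FPKM, while Kit is higher in both Ly6clo libraries.

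Most genes of the myeloid progenitor granule list were also lower in the Ly6clo gate. The list holds genes of the primary granules, which are made earlier in granulocyte and monocyte precursors. It also holds genes that encode no granule protein, such as Cebpe and Kit. The summed FPKM of the list was 314.1 and 82.32 in normal and 1926 and 352.9 in T-ALL spleen, so each gate held more in T-ALL. Of 12 genes on this list, 11 were fitted, 7 passed as lower (2.55% of all genes) and 1 as higher (3.24%). The list median was -2.31. Mpo, myeloperoxidase, was at 100.86 and 11.96 FPKM in normal, 745 and 149 in T-ALL spleen, so the T-ALL Ly6clo value exceeded the normal Ly6chi value (-2.64, SE 0.27, limma adjusted p = 0.00916). Elane, neutrophil elastase, was at 75.7 and 5.67 FPKM in normal, 495 and 40.6 in T-ALL, and Prtn3, proteinase 3, at 26.6 and 2.51 FPKM in normal, 199.9 and 24.7 in T-ALL. Their differences were close to equal in the 2 states, at -3.52 and -3.58 for Elane and at -2.98 and -2.97 for Prtn3. Fcnb, ficolin B, was at 46.0 and 0.98 FPKM in normal spleen and at 103 FPKM in the T-ALL Ly6chi library, and it was not listed in the T-ALL Ly6clo library (-5.64, limma adjusted p = 0.00675). Cebpe, which encodes C/EBP epsilon, was at 18.4 and 0.73 FPKM in normal, 55.7 and 2.26 in T-ALL (-3.80, SE 0.36, limma adjusted p = 0.00702). The exception was Kit, the stem cell factor receptor of progenitors and mast cells, which was higher, at 7.79 and 48.6 FPKM in normal, 6.96 and 43.4 in T-ALL, with a fitted difference of 2.49 (SE 0.19, limma adjusted p = 0.00538). The calls fell to 4 lower without the normal Ly6clo library and to 4 without the T-ALL Ly6chi library, and Elane missed the threshold in both (0.0669 and 0.0515). Kit passed under every setting.

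Classical monocyte genes were lower in the Ly6clo gate. Of 20 listed genes, 18 were fitted and 8 passed, each as lower (2.55% of all genes). The list median was -1.49, at -2.07 in the normal and -1.11 in the T-ALL pair. The list includes Ly6c2, which was sorted on, and Chil3 and Hp, which neutrophil precursors also express. Ccr2, the receptor that lets classical monocytes leave bone marrow, was at 167 and 21.3 FPKM in normal, 37.4 and 10.0 in T-ALL spleen (-2.36, SE 0.35, limma adjusted p = 0.0237). F13a1, the coagulation factor XIII A chain, was at 35.6 and 0.62 FPKM in normal, 12.3 and 0.95 in T-ALL (-3.63, limma adjusted p = 0.0219). Both were higher in the normal than in the T-ALL Ly6chi library, the reverse of the granule genes. Chil3, a chitinase-like protein, followed the granule genes, at 629.7 and 12.8 FPKM in normal, 1332 and 5.66 in T-ALL (-6.58, limma adjusted p = 0.00599). Lyz2, lysozyme, was at 12009.9 and 2075 FPKM in normal, 5901 and 1707 in T-ALL and remained among the abundant transcripts of the Ly6clo gate. Leaving out the normal Ly6clo library reduced the calls to 3, with adjusted p-values of 0.175 for Ccr2, 0.172 for F13a1, 0.0764 for Chil3 and 0.0975 for Lyz2. Ccr2 also missed the threshold without the T-ALL Ly6clo library (0.0649), and Lyz2 without either Ly6chi library (0.136 normal, 0.0886 T-ALL).

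Patrolling monocyte genes, which a Ly6C-low monocyte is known for, lay mostly lower in the Ly6clo gate of normal spleen and close to even in T-ALL. All 20 listed genes were fitted, 2 passed as higher (3.24% of all genes) and 1 as lower (2.55%), and the list median was -0.70. In the normal pair 13 of the 20 were at least 2-fold lower in the Ly6clo gate (5.45% of all genes) and 2 at least 2-fold higher (6.56%); in the T-ALL pair 1 was lower (4.6%) and 1 higher (5.77%). Nr4a1, the factor that patrolling monocytes require, was at 537 and 359 FPKM in normal, 237 and 186 in T-ALL spleen (-0.47, SE 0.21, limma adjusted p = 0.196). Cx3cr1, the fractalkine receptor, was at 198 and 40.8 FPKM in normal, 87.9 and 53.1 in T-ALL (-1.48, SE 0.37, limma adjusted p = 0.0744). Ace, angiotensin-converting enzyme, was at 301 and 47.8 FPKM in normal, 109 and 66.0 in T-ALL, and Treml4 at 324 and 117 FPKM in normal, 189 and 164 in T-ALL, with limma adjusted p-values of 0.114 and 0.244. Among the 4 F4/80lo libraries the normal Ly6chi one was highest for each of these genes; Treml4 was higher still in the normal Ly6cloF4/80hi library, at 511 FPKM. The higher calls were Itgax and Dusp5. Itgax, which encodes CD11c and is also a dendritic cell gene, was at 48.7 and 131 FPKM in normal, 44.5 and 89.1 in T-ALL (1.20, limma adjusted p = 0.0237). Dusp5, a phosphatase of ERK, was at 3.56 and 13.3 FPKM in normal, 4.24 and 10.1 in T-ALL (1.37, limma adjusted p = 0.0344). Dusp5 missed the threshold after median-ratio rescaling and after quantile normalization. The lower call was Pglyrp1, a peptidoglycan recognition protein that neutrophils also make, at 231 and 109 FPKM in normal, 317 and 144 in T-ALL (-1.10, limma adjusted p = 0.024). Without either normal F4/80lo library none of the list passed; without the T-ALL Ly6chi library 5 passed as lower and none as higher, and without the T-ALL Ly6clo library 4 passed as lower and 2 as higher.

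**Figure D3:**
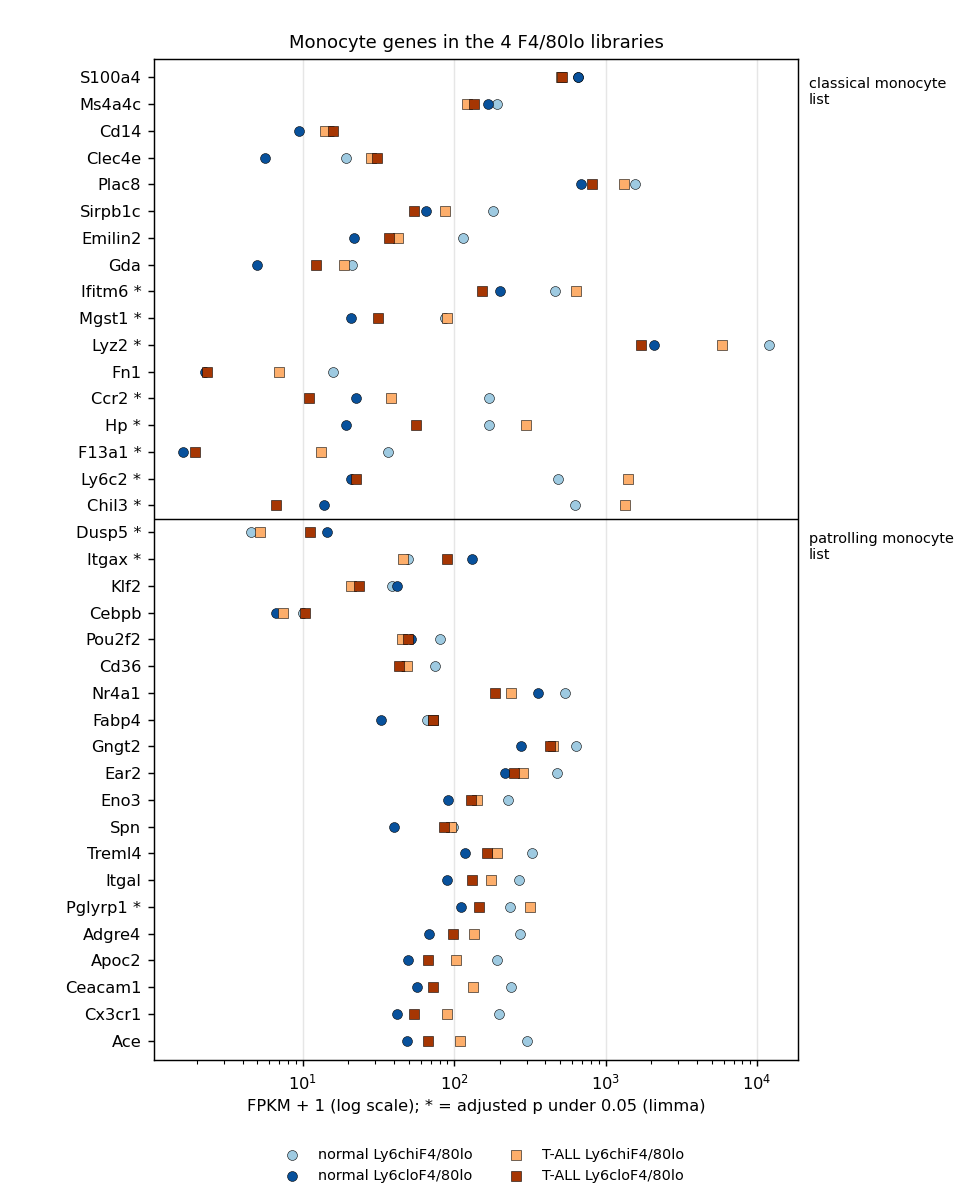
Levels of fitted members of the classical and the patrolling monocyte list in the 4 F4/80lo libraries, as FPKM + 1 on a log scale, with the symbols of the plot of granule genes. Most patrolling monocyte genes have their highest value in the normal Ly6chi library, as with Cx3cr1 at 198 FPKM against 40.8 to 87.9 FPKM in the other 3.

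General macrophage genes were, where they passed, lower in the Ly6clo gate. Of 10 fitted genes 4 passed as lower (2.55% of all genes), Lyz2 among them, and none as higher (3.24%). Csf1r, the receptor for macrophage colony-stimulating factor, was at 673 and 218 FPKM in normal, 333 and 256 in T-ALL spleen (limma adjusted p = 0.168), so it was present in both gates. Cd68 was at 412 and 209.8 FPKM in normal, 185 and 166 in T-ALL and did not pass. Itgam, which encodes CD11b, was at 159.7 and 39.8 FPKM in normal, 105 and 41.5 in T-ALL (-1.65, SE 0.22, limma adjusted p = 0.0178). The scavenger receptor Msr1, at 27.8 and 3.52 FPKM in normal, 8.28 and 1.77 in T-ALL, and the high-affinity IgG receptor Fcgr1, at 19.6 and 3.48 FPKM in normal, 6.27 and 2.45 in T-ALL, were lower as well (-2.21 and -1.64). Fcgr3 followed Fcgr1 at 253 and 58.3 FPKM in normal, 107 and 46.9 in T-ALL, whereas Fcgr4 was highest in the T-ALL Ly6clo library, at 138 and 92.0 FPKM in normal, 245 and 425 in T-ALL, and did not pass. Without the normal Ly6clo library no macrophage gene of the list passed, with Itgam at an adjusted p of 0.065; without either Ly6chi library 2 passed, and without the T-ALL Ly6clo library 6 did. Among red pulp macrophage genes, 1 of 14 fitted passed: Blvrb, biliverdin reductase B, which erythroid cells also express, at 46.1 and 81.6 FPKM in normal, 56.3 and 201.49 in T-ALL (1.32, limma adjusted p = 0.0497). Blvrb lost its call when any F4/80lo library other than the normal Ly6clo one was left out (0.0685 to 0.211), and when either Ly6cloF4/80hi library was (0.0587 and 0.0704), and after median-ratio rescaling (0.081) or quantile normalization (0.0695). Spic, the factor that red pulp macrophages require, was at 38.0 and 31.8 FPKM in normal, 26.01 and 20.8 in T-ALL (-0.28, limma adjusted p = 0.465).

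Complement genes split by component. C3, the central complement protein, was at 42.9 and 8.39 FPKM in normal, 75.5 and 11.9 in T-ALL spleen (-2.40, SE 0.17, limma adjusted p = 0.00518). The alternative pathway protease Cfb, at 12.4 and 4.49 FPKM in normal, 19.4 and 8.99 in T-ALL, and the anaphylatoxin receptor C5ar1, at 27.0 and 4.30 FPKM in normal, 28.4 and 10.2 in T-ALL, were lower too (-1.16 and -1.89). Cd55, the decay-accelerating factor that protects cells from complement, was higher, at 40.5 and 103 FPKM in normal, 20.4 and 57.6 in T-ALL (1.39, SE 0.22, limma adjusted p = 0.0266). The C1q chains C1qa, C1qb and C1qc did not pass, and among the 4 F4/80lo libraries all 3 were highest in the normal Ly6clo one; both Ly6cloF4/80hi libraries were higher still, with C1qa at 2567 and 1156 FPKM. In all 3 lower (2.55% of all genes) and 1 higher (3.24%) of 10 fitted genes passed. Only C3 passed as lower without the normal Ly6chi, the normal Ly6clo or the T-ALL Ly6chi library, and Cd55 missed the threshold without the latter 2 (0.116 and 0.109).

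Conventional dendritic cell genes were higher in the Ly6clo gate in both states. Of 20 listed genes, 19 were fitted, 9 passed as higher (3.24% of all genes) and 1 as lower (2.55%). The list median was 1.18, at 1.20 in the normal and 1.21 in the T-ALL pair. Zbtb46, the transcription factor that marks this lineage, was at 9.56 and 40.5 FPKM in normal, 4.66 and 23.4 in T-ALL spleen (2.04, SE 0.24, limma adjusted p = 0.0144). Flt3, the receptor for the growth factor that dendritic cells depend on, was at 40.9 and 86.5 FPKM in normal, 12.4 and 46.1 in T-ALL (1.44, limma adjusted p = 0.0331). Ccr7, which guides mature dendritic cells and T cells to lymphoid zones, was at 70.8 and 312 FPKM in normal, 33.1 and 181 in T-ALL (2.27, SE 0.23, limma adjusted p = 0.00916). For these genes each Ly6clo value exceeded both Ly6chi values.

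By branch, genes of the ESAM-high CD4+ dendritic cells of the spleen were higher. Esam, an endothelial adhesion molecule, was at 2.40 and 23.4 FPKM in normal, 1.95 and 15.7 in T-ALL (2.67, limma adjusted p = 0.00483), and Clec4a4, the lectin DCIR2, at 10.0 and 62.7 FPKM in normal, 5.61 and 40.9 in T-ALL (2.60, limma adjusted p = 0.00538). Cd4, which this branch also carries, was at 14.8 and 63.4 FPKM in normal, 7.31 and 26.6 in T-ALL (1.88, limma adjusted p = 0.0116). Cd4 is also on the T cell list, and which cells its transcript came from was not tested. Of the cross-presenting branch 1 gene passed, and not at every setting. It was the chemokine receptor Xcr1, at 6.96 and 17.3 FPKM in normal, 4.43 and 11.1 in T-ALL (1.18, limma adjusted p = 0.0377). Clec9a, the receptor for dead-cell actin, was at 4.84 and 12.01 FPKM in normal, 2.34 and 5.59 in T-ALL (1.07, limma adjusted p = 0.0546). The factor Batf3 was at 24.8 and 66.0 FPKM in normal, 6.35 and 31.3 in T-ALL (1.76, limma adjusted p = 0.051). Clec9a and Batf3 thus narrowly missed the threshold, though both were higher in the Ly6clo gate in both states. Both passed with the 4 F4/80lo libraries alone, and Batf3 also with a pseudocount of 0.1. Fscn1, the actin bundler of mature dendritic cells, was at 8.08 and 58.1 FPKM in normal, 5.07 and 57.5 in T-ALL (2.99, SE 0.33, limma adjusted p = 0.0116). The 1 lower gene was Clec10a, a galactose-type lectin, at 34.3 and 5.71 FPKM in normal, 7.86 and 1.69 in T-ALL (-2.06, limma adjusted p = 0.0435), and it missed the threshold when any 1 of the 4 F4/80lo libraries was left out (0.0581 to 0.19). Cd209a, a lectin of monocyte-like dendritic cells, was at 217 and 96.5 FPKM in normal, 21.9 and 24.5 in T-ALL and did not pass. The higher calls fell to 5 without the T-ALL Ly6chi library, where Zbtb46 (0.0648), Flt3 (0.0856), Cd4 (0.057) and Xcr1 (0.0942) missed the threshold. Flt3, Fscn1 and Xcr1 missed it without the normal Ly6clo library (0.0884, 0.0854 and 0.105), Flt3 and Xcr1 without the T-ALL Ly6clo library (0.0757 and 0.104), and Xcr1 without the normal Ly6chi library (0.115). Xcr1 also missed it after median-ratio rescaling (0.0744) and quantile normalization (0.0822).

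Of 11 genes of MHC class II presentation, 4 passed as higher (3.24% of all genes) and none as lower (2.55%), with a list median of 1.14. They were the peptide-editing modulators H2-Oa, at 89.2 and 447 FPKM in normal, 46.1 and 234 in T-ALL spleen (2.31, SE 0.25, limma adjusted p = 0.0103), and H2-Ob, at 83.3 and 291 FPKM in normal, 50.3 and 161 in T-ALL (1.72); the chain H2-DMb2, at 232 and 848 FPKM in normal, 145 and 506 in T-ALL (1.83); and Ciita, the master activator of the class II genes, at 70.5 and 160.2 FPKM in normal, 25.3 and 84.5 in T-ALL (1.44). The presenting chain H2-Aa, at 2788 and 5728 FPKM in normal, 1281 and 3052 in T-ALL, and the invariant chain Cd74, at 15521 and 20333 FPKM in normal, 6288 and 10657 in T-ALL, did not pass (limma adjusted p = 0.0974 and 0.365). B cells and dendritic cells both express this list. Of the costimulation genes, 5 of 9 fitted passed as higher and none as lower, among them the B7 ligands Cd80 (5.58 and 15.9 FPKM in normal, 2.49 and 6.67 in T-ALL; 1.25) and Cd86 (23.7 and 43.6 FPKM in normal, 12.1 and 30.1 in T-ALL; 1.049) and the ICOS ligand Icosl (32.5 and 81.0 FPKM in normal, 9.72 and 46.0 in T-ALL; 1.71). Without the T-ALL Ly6chi library none of either list passed; without the normal Ly6clo library 2 class II and 1 costimulation gene did, and the count for costimulation was 1 without the T-ALL Ly6clo library. Without the normal Ly6chi library Cd80 (0.0934), Cd86 (0.113) and the receptor Slamf1 (0.0992) missed the threshold, while Cd40, which had not passed in the fit of all 6 libraries (0.0523), did (0.0449). Ciita missed it without the T-ALL Ly6clo library (0.0824) and after median-ratio rescaling (0.0583). After median-ratio rescaling or quantile normalization 2 costimulation genes passed.

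Most plasmacytoid dendritic cell genes that passed went the other way, but the summed FPKM of the list did not. It was 866.3 and 1064 in normal and 843.4 and 814.3 in T-ALL spleen. Of 11 fitted, 6 passed as lower (2.55% of all genes) and 1 as higher (3.24%), with a list median of -1.19. Siglech, the lectin that defines these cells, was at 45.2 and 4.13 FPKM in normal, 30.3 and 2.12 in T-ALL spleen (-3.25, SE 0.19, limma adjusted p = 0.00345), and its call held with any 1 library left out. Klk1, a kallikrein protease, was at 25.7 and 1.65 FPKM in normal, 27.2 and 1.41 in T-ALL, and Cox6a2, a cytochrome oxidase subunit, at 16.1 and 3.12 FPKM in normal, 9.46 and 0.92 in T-ALL. Tcf4, a defining member of the list, was at 21.3 and 16.1 FPKM in normal, 22.0 and 14.0 in T-ALL. It did not pass (-0.50, SE 0.16, limma adjusted p = 0.122). The higher gene, Spib, is an Ets factor that B cells also express, at 91.0 and 236 FPKM in normal, 55.1 and 167 in T-ALL (1.47, limma adjusted p = 0.0368); it missed the threshold without the normal Ly6clo (0.156) or the T-ALL Ly6chi library (0.149) and after median-ratio rescaling (0.0558). Lower calls fell to 3 without either normal F4/80lo library or the T-ALL Ly6clo library, and to 2 without the T-ALL Ly6chi library, where Klk1 had an adjusted p of 0.0505 and Cox6a2 of 0.0593.

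B cell genes were higher in the Ly6clo gate. All 14 listed genes were fitted, 9 passed as higher (3.24% of all genes) and none as lower (2.55%), and the list median was 1.42. The summed FPKM of the list was 1904 and 4578 in normal and 1554 and 3091 in T-ALL spleen, and no member was at 0 in any of the 4. Ms4a1, which encodes the B cell surface protein CD20, was at 185 and 476 FPKM in normal, 121 and 353 in T-ALL (1.45, SE 0.24, limma adjusted p = 0.0299), and Pax5, the factor of B cell identity, at 11.6 and 29.7 FPKM in normal, 4.42 and 17.6 in T-ALL (1.54, limma adjusted p = 0.0284). Cr2, complement receptor 2, had the largest difference of the list, at 18.0 and 52.8 FPKM in normal, 9.31 and 42.4 in T-ALL (1.79, limma adjusted p = 0.0237). The B cell antigen receptor chain Cd79a, at 545 and 1167 FPKM in normal, 450.2 and 780.2 in T-ALL, did not pass (limma adjusted p = 0.0913). None of the list passed without the T-ALL Ly6chi library and 1 without the normal Ly6clo library. Ms4a1, Pax5 and Cr2 then had adjusted p-values of 0.0723 to 0.149 and 0.0764 to 0.105, and Ms4a1 also missed the threshold without the normal Ly6chi library (0.0574).

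Plasma cell genes were lower in the Ly6clo gate, in contrast to B cell genes. All 8 listed genes were fitted, all 8 passed as lower (2.55% of all genes), and the list median was -2.53. The summed FPKM was 5908 and 743.3 in normal and 14906 and 1753 in T-ALL spleen. Jchain, which joins IgM and IgA subunits, was at 4617 and 376 FPKM in normal, 10138 and 941 in T-ALL spleen (-3.52, SE 0.34, limma adjusted p = 0.00826). Tnfrsf17, the survival receptor BCMA, was at 37.7 and 4.36 FPKM in normal, 88.0 and 8.06 in T-ALL (-3.07, limma adjusted p = 0.00345), and Sdc1, which encodes the marker CD138, at 51.8 and 10.7 FPKM in normal, 152 and 18.4 in T-ALL (-2.58, limma adjusted p = 0.0148). Xbp1, the secretory transcription factor, was at 539 and 131 FPKM in normal, 1438 and 255 in T-ALL. In all 4 the T-ALL library was higher than the normal one in either gate. Without the T-ALL Ly6chi library 3 of the 8 passed, and Sdc1 had an adjusted p of 0.0722; Jchain and Tnfrsf17 kept their calls with any 1 library left out.

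**Figure D4:**
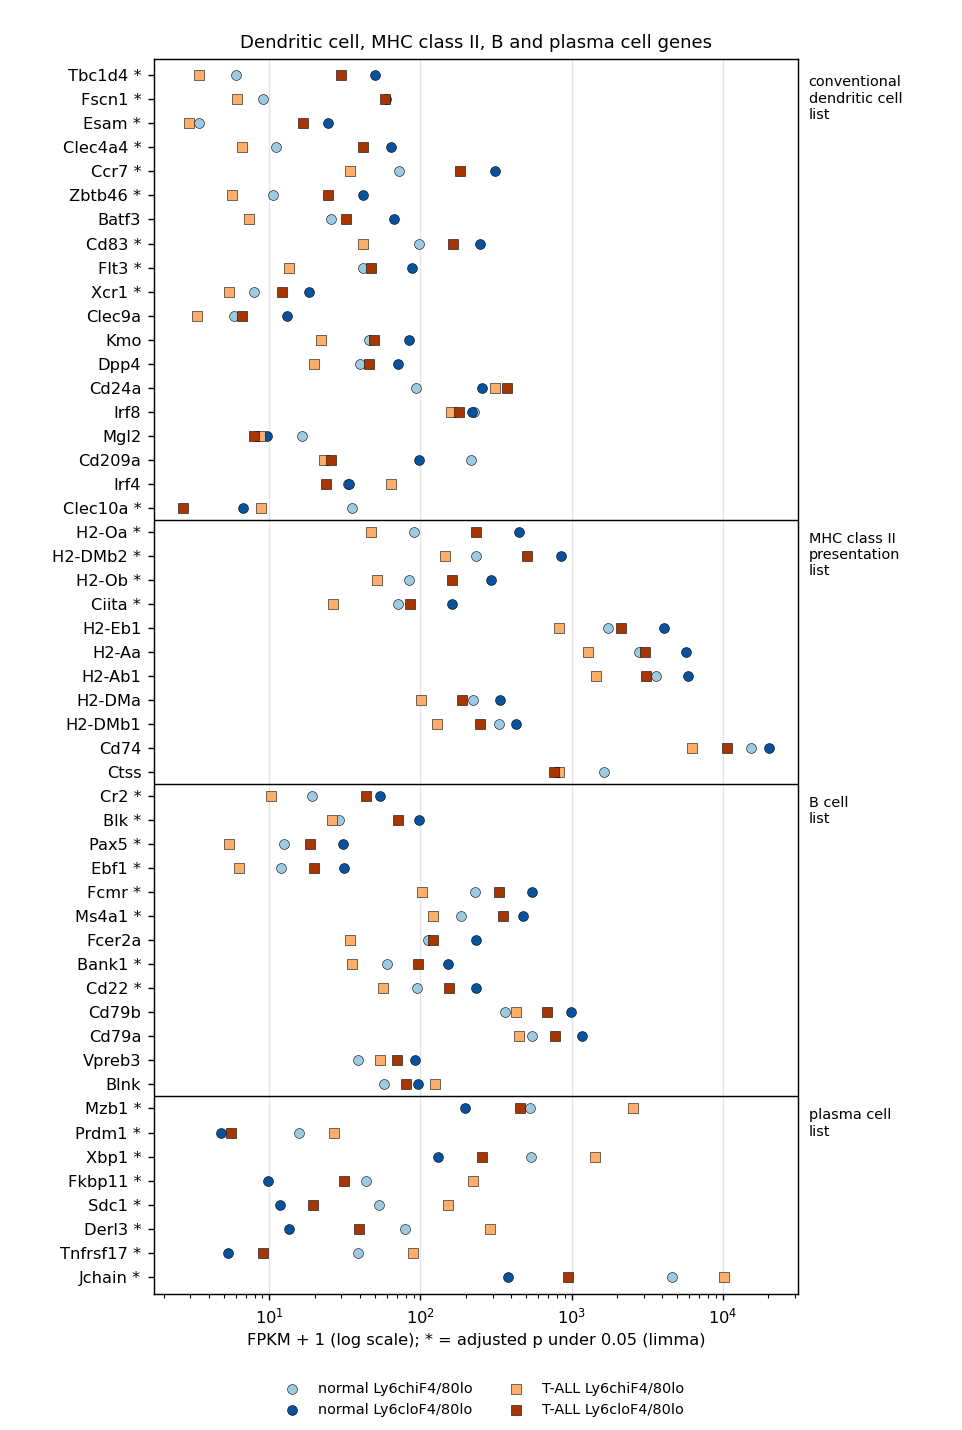
Levels of fitted members of the conventional dendritic cell, MHC class II presentation, B cell and plasma cell lists in the 4 F4/80lo libraries, as FPKM + 1 on a log scale, with the symbols of the plot of granule genes. B cell genes such as Ms4a1 are higher in each Ly6clo library (476 and 353 FPKM) than in each Ly6chi library (185 and 121 FPKM), and plasma cell genes such as Jchain are lower.

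Of T cell genes, 13 of 16 were fitted, 1 passed as higher (3.24% of all genes) and 1 as lower (2.55%). Besides Cd4, the costimulatory receptor Cd28, which plasma cells also carry, passed, as lower at 9.46 and 2.49 FPKM in normal, 21.6 and 2.45 in T-ALL (-2.15, limma adjusted p = 0.026), and it missed the threshold without the T-ALL Ly6chi library (0.119). The T cell receptor chains Cd3e, Cd3d and Cd3g stayed at or under 14.1 FPKM in all 4 libraries and did not pass, and the T-ALL libraries were not higher than the normal ones of the same gate. Cd3e passed as lower with the 4 F4/80lo libraries alone (0.0498). Cd8b1 was at 24.7 and 6.81 FPKM in normal, 14.1 and 4.36 in T-ALL and did not pass (-1.61, limma adjusted p = 0.0504). It passed as lower with the 4 F4/80lo libraries alone and after median-ratio rescaling. None of 15 fitted natural killer cell genes passed with limma, or under any alternative, and 1 had an unadjusted p under 0.05. Their median was -1.04 in the normal and 0.54 in the T-ALL pair; the activating receptor Ncr1 was at 39.6 and 17.1 FPKM in normal, 14.1 and 21.8 in T-ALL and the granule protease Gzma at 301 and 119.9 FPKM in normal, 141 and 114 in T-ALL. Whether the 2 states differ in this was not tested, since 1 pair per state leaves no replicate for it.

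Basophil and mast cell genes stood highest in the T-ALL Ly6clo library. Of 10 listed, 7 were fitted, 3 passed as higher (3.24% of all genes) and 1 as lower (2.55%). The medians were 1.15 in the normal and 2.84 in the T-ALL pair. The summed FPKM was 25.3 and 41.9 in normal and 63.9 and 328.6 in T-ALL spleen. Prss34, a basophil protease, was at 3.72 and 14.7 FPKM in normal, 10.0 and 163 in T-ALL spleen (2.81, SE 0.54, limma adjusted p = 0.0432). Cpa3, carboxypeptidase A3 of mast cells and basophils, was at 1.03 and 4.67 FPKM in normal, 2.19 and 21.8 in T-ALL (2.16, limma adjusted p = 0.0274), and the factor Gata2 at 0.12 and 2.60 FPKM in normal, 0.41 and 9.31 in T-ALL (2.28, limma adjusted p = 0.0405). Mcpt8, the protease that defines basophils, did not pass, at 2.79 and 7.43 FPKM in normal, 8.79 and 106 in T-ALL (2.30, limma adjusted p = 0.0533). The lower gene was Hdc, the enzyme that makes histamine, which immature myeloid cells also express, at 16.1 and 4.37 FPKM in normal, 39.7 and 7.25 in T-ALL (-1.99, limma adjusted p = 0.0278); it missed the threshold without the normal Ly6clo (0.141) or either T-ALL F4/80lo library (0.0672 and 0.109). No higher call was left without the T-ALL Ly6clo library, with adjusted p-values of 0.0933 for Cpa3, 0.276 for Gata2 and 0.383 for Prss34. There were 2 without the normal Ly6clo library, 1 without the T-ALL Ly6chi or the normal Ly6cloF4/80hi library and 6 without the normal Ly6chi library. After median-ratio rescaling or quantile normalization 1 passed as higher.

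Erythroid genes differed between the gates in the T-ALL pair far more than in the normal pair. Of 19 listed genes, 17 were fitted; 17 of 17 were at least 2-fold higher in the Ly6clo library in T-ALL (5.77% of all genes), against 6 higher (6.56%) and 1 lower (5.45%) in normal spleen. The summed FPKM of the list was 911.1 and 675.6 in normal and 950.5 and 6558 in T-ALL spleen, a ratio of 6.9 in the latter. Hba-a1, alpha globin, was at 461 and 265 FPKM in normal, 399 and 2579 in T-ALL spleen (0.95, SE 0.83, limma adjusted p = 0.468), and at 2438 and 18609.8 FPKM in the normal and T-ALL Ly6cloF4/80hi libraries. Klf1, the erythroid transcription factor, was at 1.51 and 7.27 FPKM in normal, 3.86 and 79.9 in T-ALL (2.89, SE 0.60, limma adjusted p = 0.0511). Car1, carbonic anhydrase 1, was the 1 gene of the list to pass and had the largest positive difference of the genes named by rule, at 6.41 and 80.1 FPKM in normal, 20.6 and 598 in T-ALL (4.12, SE 0.46, limma adjusted p = 0.0124). The fit treats the pairs as replicates, so a difference that is large in 1 pair and small in the other has a large error. Car1 missed the threshold without the normal (0.237) or the T-ALL Ly6clo library (0.167), while 14 erythroid genes passed without the normal Ly6chi library, 2 without the T-ALL Ly6chi library and 4 without the T-ALL Ly6cloF4/80hi library. Hba-a1 and Hba-a2, and Hbb-bs and Hbb-bt, are near-identical copies whose reads the counting could split, so their separate levels are uncertain. Of 4 fitted platelet genes none passed with limma, and none had an unadjusted p under 0.05.

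Chemokine and lipid receptors that position cells in the spleen differed in both directions. Of 20 fitted, 7 passed as higher (3.24% of all genes) and 2 as lower (2.55%). The latter were Ccr2 and Ccr9, the receptor for the gut chemokine CCL25. Ccr9 was at 7.88 and 2.66 FPKM in normal, 6.56 and 1.35 in T-ALL (-1.48, limma adjusted p = 0.0432), and it missed the threshold when any 1 of the 6 libraries was left out (0.0587 to 0.158). Besides Ccr7 and Xcr1, the higher genes were Ccr6 at 10.9 and 47.4 FPKM in normal, 11.1 and 32.9 in T-ALL spleen (1.76), the follicle-homing receptor Cxcr5 at 31.9 and 97.5 FPKM in normal, 18.1 and 78.1 in T-ALL (1.81), the sphingosine 1-phosphate receptors S1pr1 at 42.7 and 96.2 FPKM in normal, 21.7 and 64.4 in T-ALL (1.34) and S1pr3 at 3.05 and 7.83 FPKM in normal, 2.33 and 8.20 in T-ALL (1.30), and the oxysterol receptor Gpr183 at 23.3 and 50.9 FPKM in normal, 12.6 and 30.2 in T-ALL (1.15). B cells also express Ccr6, Cxcr5, S1pr1 and Gpr183. The limma adjusted p-values of Ccr6, Cxcr5, S1pr1, S1pr3 and Gpr183 were 0.0208 to 0.0368. S1pr1 missed the threshold after median-ratio rescaling. S1pr5, which patrolling monocytes and natural killer cells use to leave bone marrow, was at 124 and 36.2 FPKM in normal, 50.4 and 65.3 in T-ALL and did not pass (-0.69, limma adjusted p = 0.402). The higher calls fell to 4 without the normal Ly6chi or the T-ALL Ly6clo library and to 1, Ccr7, without the normal Ly6clo or the T-ALL Ly6chi library. Among chemokines, Ccl4 (35.2 and 59.1 FPKM in normal, 40.2 and 71.2 in T-ALL; 0.77) and Cxcl16 (13.9 and 32.6 FPKM in normal, 7.92 and 22.5 in T-ALL; 1.28) passed as higher, of 9 fitted. No chemokine passed as higher without the normal Ly6clo or the T-ALL Ly6chi library, or after median-ratio rescaling or quantile normalization. Ccl4 (limma adjusted p = 0.0447) missed the threshold when any 1 of the 6 libraries was left out (0.0572 to 0.243) and with the 4 F4/80lo libraries alone (0.0575).

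Of 13 inhibitory and checkpoint genes, 1 passed as higher (3.24% of all genes) and 2 as lower (2.55%). Pdcd1lg2, the ligand PD-L2, was higher at 3.11 and 8.19 FPKM in normal, 2.67 and 8.67 in T-ALL (1.28, limma adjusted p = 0.0379). It missed the threshold after median-ratio rescaling and after quantile normalization. The inhibitory receptors Lilrb4a, at 132 and 29.6 FPKM in normal, 94.3 and 41.7 in T-ALL (-1.64, limma adjusted p = 0.0261), and Clec12a, at 141 and 39.0 FPKM in normal, 89.7 and 29.0 in T-ALL (-1.71, limma adjusted p = 0.0116), were lower. Cd274, the ligand PD-L1, was at 33.8 and 51.5 FPKM in normal, 32.8 and 42.9 in T-ALL and did not pass (0.49, SE 0.16, limma adjusted p = 0.121). Of 21 lysosomal genes 2 passed, as lower (2.55% of all genes). The protease Ctsl was at 18.5 and 8.27 FPKM in normal, 19.8 and 9.39 in T-ALL (-1.03). The cholesterol carrier Npc2 was at 122 and 62.9 FPKM in normal, 109 and 62.3 in T-ALL (-0.87), and it missed the threshold after quantile normalization. Pdcd1lg2, Ctsl and Npc2 missed the threshold when any 1 of the 4 F4/80lo libraries was left out (0.0501 to 0.288), Lilrb4a without the normal Ly6clo library (0.106) and Clec12a without the T-ALL Ly6chi library (0.0546).

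Of 23 fitted myeloid transcription factors, 2 passed as higher (3.24% of all genes) and 1 as lower (2.55%). Zbtb46 and Relb, a noncanonical NF-kappaB subunit at 43.4 and 147 FPKM in normal, 31.1 and 99.5 in T-ALL (1.69, limma adjusted p = 0.0144), were the higher and Cebpe the lower one; Relb missed the threshold without the T-ALL Ly6chi (0.0674) or the normal Ly6clo library (0.0504). Spi1, which encodes the macrophage and B cell factor PU.1, was at 469 and 392 FPKM in normal, 408 and 355 in T-ALL and Irf8 at 226 and 218 FPKM in normal, 158 and 178 in T-ALL; neither passed (-0.23, SE 0.21 and 0.06, SE 0.20). Of 15 Toll-like receptor genes 2 passed as higher (3.24% of all genes). Tlr1, which pairs with TLR2 on bacterial lipopeptides, was at 30.2 and 60.5 FPKM in normal, 16.9 and 40.2 in T-ALL (1.09). Tlr11, a profilin sensor of dendritic cells, was at 4.98 and 13.2 FPKM in normal, 1.49 and 5.32 in T-ALL (1.30). Il1rn, the interleukin-1 receptor antagonist, was the 1 gene of 13 to pass among inflammasome and interleukin-1 genes, as lower (2.55% of all genes). It was at 13.4 and 5.93 FPKM in normal, 23.4 and 8.43 in T-ALL (-1.21). Of 19 type I interferon-stimulated genes 1 passed, as lower (2.55% of all genes). It was Zbp1, a nucleic acid sensor, at 108 and 54.6 FPKM in normal, 169 and 75.3 in T-ALL (-1.06). Gbp8 was the 1 of 12 interferon-gamma-inducible GTPases to pass, as higher (3.24% of all genes), at 8.43 and 27.1 FPKM in normal, 6.43 and 16.3 in T-ALL (1.40). Tlr1, Tlr11, Il1rn, Zbp1 and Gbp8 each missed the threshold without the normal Ly6clo library (0.0839 to 0.22), and the first 4 without either T-ALL F4/80lo library (0.0632 to 0.175); Tlr1, Tlr11, Zbp1 and Gbp8 also without the normal Ly6chi library (0.0523 to 0.0756). After quantile normalization Tlr1 (0.0608), Tlr11 (0.0537) and Gbp8 (0.0545) missed it, so that no Toll-like receptor gene passed, and Tlr1 also after median-ratio rescaling (0.0746).

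None of 16 fitted immediate early genes passed with limma, and 3 had an unadjusted p under 0.05; 1 passed as lower without the normal Ly6chi library and 1 as higher without the T-ALL Ly6clo library. Egr1, an early growth response factor, was at 95.2 and 307 FPKM in normal, 83.7 and 52.9 in T-ALL spleen, and Fos, the AP-1 subunit, at 454 and 414 FPKM in normal, 545 and 116 in T-ALL. The Ly6clo value was the higher one for Egr1 in normal spleen and the lower one in T-ALL. None of 25 cell cycle genes passed with limma or at any other setting. An unadjusted limma p under 0.05 was found for 6 of them, against 2631 of all 9086 genes. Mki67, the proliferation antigen, was at 5.99 and 5.73 FPKM in normal, 20.5 and 17.1 in T-ALL. Pcna, the replication clamp, was at 52.9 and 92.3 FPKM in normal, 143 and 209 in T-ALL. For both genes the T-ALL library was higher than the normal one in either gate.

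Ribosomal protein genes had a median of 1.17 in the normal and 0.38 in the T-ALL pair, with 27 of 34 at least 2-fold higher in the normal Ly6clo library (6.56% of all genes) and none in the T-ALL one (5.77%). None passed with limma (17 had an unadjusted p under 0.05), except that 29 did without the T-ALL Ly6clo library. Rplp1 was at 385 and 1418 FPKM in normal, 1038 and 1589.6 in T-ALL. Among the libraries compared, the normal Ly6chi one stood lowest and the other 3 were closer together. In the remaining sorted fraction of the series Rplp1 was at 550 FPKM in normal and 1576 in T-ALL spleen. The summed FPKM of the list was 15971 and 36353 in the normal pair, and 15446 in the remaining normal library. Among the normal libraries the Ly6clo one thus stood apart as the highest. In metabolism, 1 glycolytic gene of 18 passed in each direction (3.24% of all genes higher, 2.55% lower). The myeloid hexokinase Hk3 was lower at 30.9 and 8.77 FPKM in normal, 45.6 and 11.20 in T-ALL (-1.82). The regulatory enzyme Pfkfb3 was higher at 18.1 and 32.9 FPKM in normal, 10.8 and 27.3 in T-ALL (1.048). After median-ratio rescaling and after quantile normalization Pfkfb3 missed the threshold. Hk3 and Pfkfb3 missed the threshold without the normal Ly6clo (0.235 and 0.133), the T-ALL Ly6clo (0.0728 and 0.108) or the T-ALL Ly6chi library (0.145 and 0.135). None of 20 oxidative phosphorylation genes passed with limma or had an unadjusted p under 0.05, and their median was 0.05, which turned to -0.16 after median-ratio rescaling.

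Within the Ly6 family, whose genes lie in a cluster on chromosome 15, 5 of 8 fitted genes passed as lower (2.55% of all genes) and none as higher (3.24%). The 5 include Ly6c2, which was sorted on, and its close copy Ly6c1. The sort thus fixed part of this count, which is not a finding about the family. Ly6c1, the close copy of Ly6c2 that endothelial cells use, was at 4.85 and 0.95 FPKM in normal, 8.58 and 0.49 in T-ALL spleen (-2.13, SE 0.41, limma adjusted p = 0.0413), so nearly all Ly6C transcript of the Ly6chi gate was assigned to Ly6c2. Reads that fit both copies could be split between them by the counting, and the level of Ly6c1 is uncertain for that reason. Promoter windows of the pair are shown because the genes differ in level in the same library; capitals mark bases that differ or are unaligned between them. The windows are Ly6c2 at chr15:75111922-75112221 (minus strand) and Ly6c1 at chr15:75048788-75049087 (minus strand).
Ly6c2: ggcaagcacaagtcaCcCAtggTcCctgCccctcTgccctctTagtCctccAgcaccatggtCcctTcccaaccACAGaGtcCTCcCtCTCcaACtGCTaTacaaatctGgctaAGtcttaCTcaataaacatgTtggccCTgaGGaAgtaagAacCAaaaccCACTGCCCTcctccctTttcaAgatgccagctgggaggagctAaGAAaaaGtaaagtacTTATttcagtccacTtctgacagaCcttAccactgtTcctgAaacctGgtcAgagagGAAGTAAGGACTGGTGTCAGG
Ly6c1: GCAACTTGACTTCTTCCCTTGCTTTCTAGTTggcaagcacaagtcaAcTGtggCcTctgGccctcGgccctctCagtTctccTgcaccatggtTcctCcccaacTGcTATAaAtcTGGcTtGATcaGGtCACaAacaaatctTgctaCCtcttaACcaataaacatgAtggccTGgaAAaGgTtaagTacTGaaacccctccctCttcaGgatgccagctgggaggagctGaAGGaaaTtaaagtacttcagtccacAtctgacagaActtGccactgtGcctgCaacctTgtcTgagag

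Over 266 aligned bases the 2 windows shared 208, or 78.2%. Each gene has a second window in the table, not shown; the other pairings of windows shared 77.6% to 89.3% of their aligned bases. Ly6i was at 126 and 24.1 FPKM in normal, 129 and 56.7 in T-ALL spleen (-1.75, limma adjusted p = 0.0496). Ly6a, which encodes the stem cell antigen Sca-1, was at 273 and 181 FPKM in normal, 1525 and 322 in T-ALL and did not pass (-1.42, SE 0.39, limma adjusted p = 0.0867); its T-ALL Ly6chi value stood above the other 3. Ly6e, at 1582 and 1159 FPKM in normal, 1336 and 1177 in T-ALL, also did not pass. The family's calls fell to 3 without the normal Ly6clo, the T-ALL Ly6chi or the T-ALL Ly6cloF4/80hi library and to 2 without the T-ALL Ly6clo library. In these 4 cases Ly6c1 had adjusted p-values of 0.0685, 0.112, 0.0713 and 0.142. Ly6c1 also missed the threshold without the normal Ly6cloF4/80hi library (0.0639) and with the 4 F4/80lo libraries alone (0.0507). Ly6i missed the threshold without the normal Ly6chi (0.0782), the normal Ly6clo (0.354) or the T-ALL Ly6clo library (0.172) and after quantile normalization (0.0712).

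Several of the highest genes by rule belong to none of these lists or are dendritic cell genes. Ppp1r14a, an inhibitor of myosin phosphatase, was at 4.29 and 94.1 FPKM in normal, 4.19 and 53.4 in T-ALL spleen (3.78, SE 0.23, limma adjusted p = 0.00345). Apol7c, an apolipoprotein L of dendritic cells, was at 18.6 and 204 FPKM in normal, 3.89 and 85.9 in T-ALL (3.77, limma adjusted p = 0.00345). H2-M2, a nonclassical class I molecule, was at 7.02 and 59.4 FPKM in normal, 1.32 and 25.3 in T-ALL (3.21), and Asb2, a ubiquitin ligase subunit, at 14.2 and 137 FPKM in normal, 6.99 and 67.3 in T-ALL (3.14). Tbc1d4, a Rab GTPase activator, at 5.03 and 49.2 FPKM in normal, 2.42 and 28.7 in T-ALL (3.09), had nearly the same difference in the 2 states (3.06 and 3.12), as did the calcium channel subunit Cacnb3, at 1.47 and 19.6 FPKM in normal, 1.23 and 17.1 in T-ALL (3.06 and 3.02). Ube2e2, a ubiquitin-conjugating enzyme, was at 2.03 and 22.8 FPKM in normal, 0.75 and 13.4 in T-ALL, the receptor Klri1 at 6.49 and 78.3 FPKM in normal, 4.16 and 28.0 in T-ALL and Rgs12, a regulator of G protein signaling, at 2.96 and 30.8 FPKM in normal, 2.34 and 21.0 in T-ALL (3.01, 2.95 and 2.86). These 9 kept their calls with any 1 library left out. Of the lowest genes outside the lists, Chil1, a chitinase-like protein, was at 41.6 and 1.43 FPKM in normal, 70.0 and 0.07 in T-ALL (-5.09, limma adjusted p = 0.00677) and Lrg1, a secreted glycoprotein of neutrophil granules, at 37.6 and 1.03 FPKM in normal, 95.5 and 0.62 in T-ALL (-5.07, limma adjusted p = 0.00538), and both kept their calls with any 1 library left out.

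The gate differences of the normal and the T-ALL pair were also set against each other gene by gene. Within the normal pair 596 genes were at least 2-fold higher in the Ly6clo gate (6.56%) and 495 lower (5.45%), and within the T-ALL pair 524 were higher (5.77%) and 418 lower (4.6%). In both pairs 253 were higher (2.78%) and 200 lower (2.2%), and 4 (0.044%) moved at least 2-fold in opposite directions, 3 of them higher in normal and lower in T-ALL (0.033%) and 1 the other way (0.011%). The T-ALL difference exceeded the normal one by at least 4-fold for 64 genes and fell short of it by at least 4-fold for 38. Bracketed numbers from here on are the T-ALL minus the normal difference. Retnlg had the lowest, -5.27, and Mmp9, a matrix metalloproteinase of neutrophils at 28.9 and 14.7 FPKM in normal, 100.5 and 2.70 in T-ALL, and Mmp8, another at 7.75 and 0.88 FPKM in normal, 56.7 and 0.24 in T-ALL, were also among the 8 lowest (-3.84 and -3.32), with S100a9, S100a8, Lcn2, Camp and Tmem254c. Among the 8 highest were Hba-a1 (3.49), Hbb-bs (3.21) and Hbb-bt (2.95), with Cldn13, a claudin of erythroid cells, at 2.06 and 2.91 FPKM in normal, 2.72 and 47.3 in T-ALL (3.34), the glutathione transferase Gstm5 at 0.91 and 4.29 FPKM in normal, 0.85 and 41.7 in T-ALL (3.06), the ferrireductase Steap3 at 3.01 and 2.57 FPKM in normal, 2.17 and 22.4 in T-ALL (3.05) and the retinal dehydrogenase Aldh1a1 at 0.4 and 1.18 FPKM in normal, 0.59 and 18.5 in T-ALL (2.97). Tmem254b was the other; it is a near-identical copy of Tmem254c, and how reads were split between them is uncertain. All 7 of the former had their highest value in the T-ALL Ly6clo library among the 4. With 1 library per gate and state, no difference between the states was tested.

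**Figure D5:**
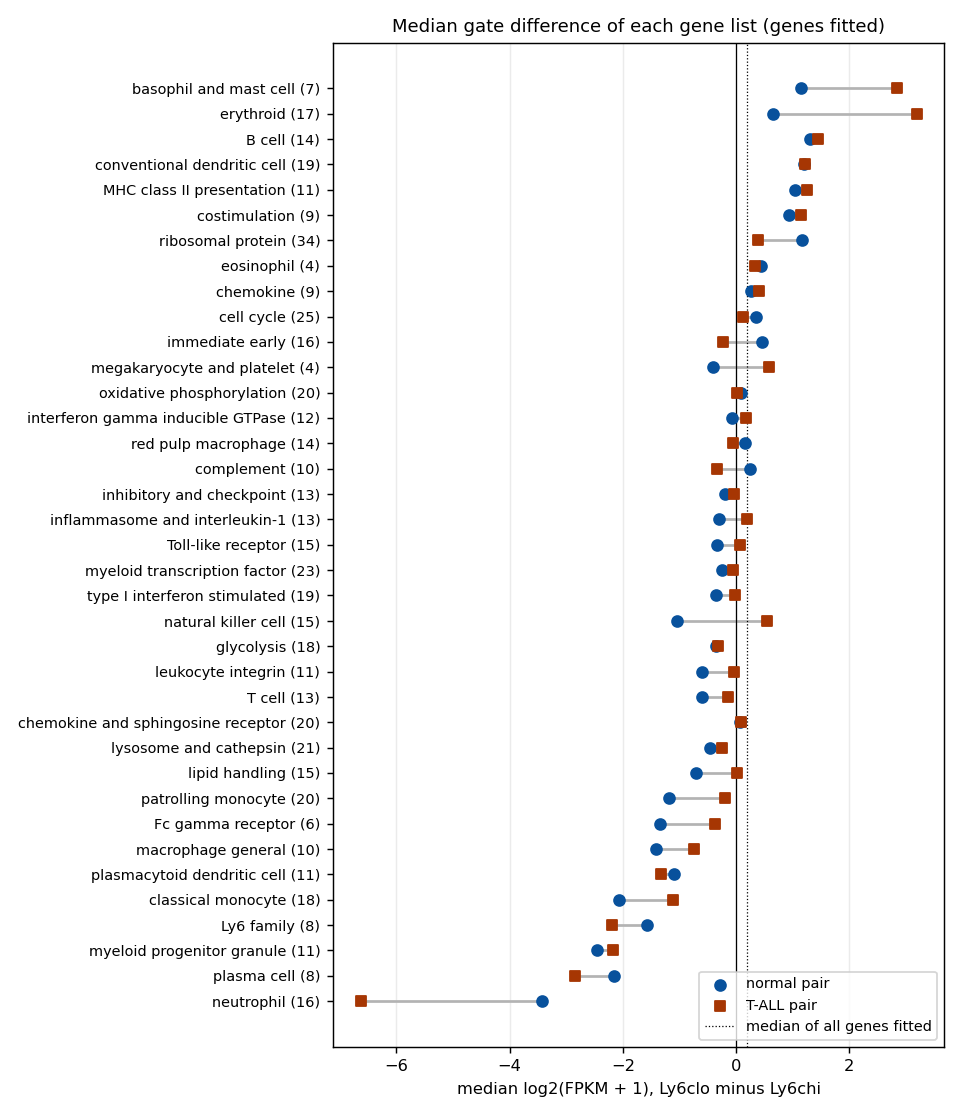
Median gate difference of the fitted members of each gene list with at least 4 of them, in the normal pair (circles) and the T-ALL pair (squares), as log2(FPKM + 1) of Ly6clo minus Ly6chi; numbers in brackets are fitted members and the dotted line is the median of all genes fitted, 0.19. Neutrophil (-3.42 and -6.63), erythroid (0.66 and 3.19) and natural killer cell (-1.04 and 0.54) lists have medians far apart in the 2 pairs, and conventional dendritic cell (1.20 and 1.21) and B cell (1.30 and 1.45) lists have medians close together.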

How the data were processed

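Total RNA of 6 sorted splenic fractions was sequenced, per the labels' protocols on an Illumina HiSeq instrument, and the authors deposited FPKM values per gene for each library. Bowtie2 2.2.5 and RSEM are named in the submitters' processing notes; the sources used here do not give the genome build or annotation. Values were used as deposited, with a gene absent from a library set to 0, as log2(FPKM + 1). The 9086 genes that reached 5 FPKM in any F4/80lo library were fitted with limma 3.58.1 (R 4.3.3, statmod 1.5.0; trended and robust prior) on all 6 libraries, with gate as the contrast and state as a block, which leaves 2 residual degrees of freedom; the script was tested on simulated data with 200 changed genes. A call is an adjusted p under 0.05. Within a pair, with 1 library per gate, genes past 2-fold were counted with no test. FPKM hold no counts, so the depth is an estimate from the smallest steps between values, and precision is limited for low genes.

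Genes are named by rule: 8 marker genes; the 12 highest and 12 lowest passing differences among genes of at least 10 FPKM; the first 3 and up to 4 most different members of each list; and the 8 highest and 8 lowest differences between the pairs. Ccl4, Cd209a, Cfb, Clec10a, Clec9a, Cxcr2, Fcgr4, Gpr183, Hdc, Kit, Pglyrp1, S1pr1, S1pr3, S1pr5, Spib and Xbp1 were named after their values were seen. The members and lists were chosen with earlier results of these data known. Alternatives were another pseudocount, other filters and scalings, limma without its trended and robust prior, no block, the 4 libraries alone, an added 2-fold requirement and leaving out each library. Promoter windows are from RefSeq tables; a protein table was not used here. Some list members that enter the counts are not reported here by name or in the plots.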

Additional observations from a re-analysis of the deposited data

Results flagged for a closer look

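Tmem254c, which encodes a transmembrane protein, had gate differences of opposite sign in the 2 states. It was at 0.02 FPKM in the Ly6chi and 1.07 FPKM in the Ly6clo library of normal spleen, and at 27.04 and 1.01 FPKM in T-ALL. The log2 difference was 1.02 in the normal and -3.80 in the T-ALL pair, so the second minus the first was -4.82. With 1 library per gate and state the difference between the states was not tested. Tmem254b, a near-identical copy, was at 21.71 and 20.34 FPKM in normal spleen, was listed at 0 in the T-ALL Ly6chi library and was at 27.31 FPKM in the T-ALL Ly6clo library, so each gene is low where the other is high in the T-ALL pair.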

How the results depend on the processing

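No call on any of the 526 genes changed sign under an alternative. Calls numbered 156 (81 higher, 75 lower) with no filter on low values and 16 (5 higher, 11 lower) with no state block; higher calls numbered 149 after median-ratio rescaling and 159 after quantile normalization. Leaving out 1 library gave 132 to 543 calls, 50 to 316 higher and 82 to 227 lower. Within T-ALL, 342 genes were at least 2-fold higher after median-ratio rescaling, against 524. With a pseudocount of 0.1 the T-ALL difference was at least 4-fold above the normal one for 97 genes and at least 4-fold below for 65, against 64 and 38. The reported fit pairs the gates by state, and the 2 pairs alone, without the Ly6cloF4/80hi libraries, gave 557 calls. A pairing by replicate number was not run, since the labels give none. The cause of these shifts was not tested. Depth limits low genes: at 1 FPKM a 2 kb transcript has a counting error of 24.0% to 27.4%.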
